A study of Mus musculus with 18 samples.

Results

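The genes described here encode subunits of potassium, calcium, TRP, sodium and chloride channels. They were read on Affymetrix Mouse Gene 1.0 ST arrays in the 3 cell types of the mouse glomerulus, the filtering unit of the kidney. Members were the gene symbols that begin with Kcn, Cacn, Scn, Clcn, Trpa, Trpc, Trpm or Trpv and end in a digit or in a letter after digits, and the anoctamins Ano followed by digits. The array table holds 173 such symbols among 22909 distinct symbols. Of these, 41 reached a signal of 100 or more in at least 1 of the 18 arrays, and these 41 are the members. The signal is the deposited linear intensity of a transcript cluster, the set of probes that reads 1 gene, and where several clusters carry a symbol, the cluster whose signal averaged highest was taken. The members were thus chosen by their level, and that level is a description and not a finding. Just inside the minimum lay *Cacng2*, with a highest signal of 100.2, and *Scn2a1*, with 101.9. Just outside lay *Trpv4*, with 99.6, and *Kcnh4*, with 99.2.

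The study asked how each glomerular cell type differs in mice that lack CD2AP, an adapter protein of the podocyte slit diaphragm. Mutant mice were CD2AP-/- (strain B6.129X1-Cd2ap tm1Shaw/J) and their controls were labelled wild type, and all were killed at 5 weeks of age, when blood urea nitrogen was raised in the mutants. Mesangial cells carried *Meis1-GFP*, endothelial cells *Tie2-GFP* and podocytes a GFP reporter of their own, transgenes that controls and mutants share. GFP positive cells were sorted from sieved and dissociated glomeruli, and their RNA was amplified in a single round. Each of the 6 groups has 3 arrays, called A, B and C here in the order of the columns. The deletion is not restricted to 1 cell type, so a difference in any cell type is that of a whole mutant animal. In the table's headings the mesangial controls bear a +:- sign, as a heterozygote would, and the other controls a sign with + on both sides. The genotype field of the mesangial controls reads wildtype and their titles control, so wild type is kept as their name, but they may be heterozygous. In that case the mesangial comparison sets mutants against heterozygotes, and comparisons between wild type cell types and between genotype differences mix control genotypes. The replicates are described as independent biological ones, and whether any was pooled from several mice is not given in the sources used here.

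Ion channels set the membrane potential and calcium entry of contractile and filtering cells. Mesangial cells are pericyte-like cells that contract around the capillary loops. In such cells calcium enters through voltage-gated and TRPC channels, calcium-activated chloride channels of the anoctamin family depolarize the membrane, and potassium channels oppose this. Podocytes are known for TRPC channels coupled to their actin skeleton, and endothelial cells for inward rectifiers that respond to flow and vasoactive signals. Pore subunits form the channel, while auxiliary subunits carry it to the membrane and tune its gating.

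Promoter sequences are shown for the 3 members that were lower in mutant mesangial cells and for *Cacna2d1*, whose level followed theirs across cell types but not across genotypes. Each is the RefSeq window from 250 bases before to 50 bases after the gene's start in GRCm38.p6, printed 5′ to 3′ in the direction of the gene. Capitals mark a GC box (GGGCGG) or a TATA box (TATAAA) read on either strand, with overlapping matches merged. RefSeq windows were found for 35 of the 41 members.

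*Ano1*, chr7:144738524-144738823, minus strand: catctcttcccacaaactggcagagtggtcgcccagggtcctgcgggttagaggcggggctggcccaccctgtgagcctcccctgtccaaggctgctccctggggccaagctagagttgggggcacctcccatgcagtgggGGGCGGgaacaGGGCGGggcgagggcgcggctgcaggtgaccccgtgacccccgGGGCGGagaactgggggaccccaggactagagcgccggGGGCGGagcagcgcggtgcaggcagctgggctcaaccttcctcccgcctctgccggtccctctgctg
*Trpc4*, chr3:54155807-54156106, plus strand: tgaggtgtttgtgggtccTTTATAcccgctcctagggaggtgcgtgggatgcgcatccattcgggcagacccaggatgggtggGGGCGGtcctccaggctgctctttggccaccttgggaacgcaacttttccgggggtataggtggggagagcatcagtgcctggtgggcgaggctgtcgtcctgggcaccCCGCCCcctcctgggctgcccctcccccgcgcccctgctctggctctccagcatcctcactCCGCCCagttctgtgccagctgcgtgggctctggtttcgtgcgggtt
*Kcnd3*, chr3:105451640-105451939, plus strand: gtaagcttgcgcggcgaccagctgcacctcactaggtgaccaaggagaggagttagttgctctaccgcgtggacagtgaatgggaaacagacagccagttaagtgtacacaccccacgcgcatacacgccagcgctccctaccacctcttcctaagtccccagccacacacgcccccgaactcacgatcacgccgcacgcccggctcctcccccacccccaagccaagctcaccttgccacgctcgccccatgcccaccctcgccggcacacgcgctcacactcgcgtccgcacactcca
*Cacna2d1*, chr5:15934441-15934740, plus strand: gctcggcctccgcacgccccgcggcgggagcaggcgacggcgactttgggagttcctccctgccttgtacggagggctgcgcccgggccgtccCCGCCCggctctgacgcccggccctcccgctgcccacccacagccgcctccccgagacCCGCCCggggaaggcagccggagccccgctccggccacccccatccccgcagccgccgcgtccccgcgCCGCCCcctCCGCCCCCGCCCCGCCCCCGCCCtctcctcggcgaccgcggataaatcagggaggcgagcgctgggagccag

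The *Ano1* window holds 4 GC boxes, that of *Trpc4* 3, that of *Cacna2d1* 7 and that of *Kcnd3* 0. A GC box is found in 35.7% of all 32851 windows of the table. A TATA box is found in the *Trpc4* window on the opposite strand, and in 13.6% of all windows. None of the 4 windows holds a CArG box, the site of serum response factor, which 1.6% of all windows hold. The GC content of the windows was 71.7% for *Ano1*, 66.0% for *Trpc4*, 64.0% for *Kcnd3* and 80.0% for *Cacna2d1*. None of these motifs is common to the windows of *Ano1*, *Trpc4* and *Kcnd3*.

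The arrays fall by cell type as their labels say. The summed signal of 12 podocyte markers was 18191 to 20137 in wild type podocytes, that of 11 mesangial markers 14602 to 15831 in wild type mesangial cells, and that of 12 endothelial markers 17491 to 19068 in wild type endothelial cells. Markers of other cell types were read in some arrays. Wild type mesangial array C had a podocyte sum of 5025 and an endothelial sum of 8863, against at most 1469 and 3702 in arrays A and B, and its erythroid sum was 7616 against 949 and 667. Podocyte arrays held mesangial markers, with sums of 6938, 6217 and 5501 in wild type and 4906, 3234 and 1270.5 in mutant arrays A, B and C. Within these sums *Ptn* read 2434, 2206 and 2028 in wild type and 1627, 790 and 132 in mutant arrays. The study reports *Ptn* as a gene strongly expressed in wild type podocytes and lower in mutant ones, so it is no marker of mesangial cells alone. Mutant podocyte array C had the highest median signal of the 18 arrays, 71.6 in a range that starts at 62.8, and the most members at 100 or more, 26. All 3 mutant podocyte arrays stood apart from each other, with a median Pearson's r with their own group, over the log2 signals of all clusters, of 0.968 to 0.970, against 0.980 to 0.991 in the other 15 arrays. The *Cd2ap* signal was not a check of genotype, since its cluster read 922, 1037 and 1123 in wild type and 819, 870.4 and 797 in mutant mesangial cells, and no genotype difference in any cell type had an adjusted p under 0.05. Directions of change therefore rest on the labels.

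Channel families differed in how many of their genes reached the minimum. Of 7 CLC chloride channels and proton exchangers, 6 were members, and of 10 anoctamins 4 were. Members also included 5 of 15 auxiliary calcium channel subunits, 5 of 15 inward rectifiers, 4 of 14 two-pore potassium channels, 4 of 21 TRP channels, 7 of 40 voltage-gated potassium channel subunits, 3 of 16 auxiliary potassium channel subunits and 2 of 16 sodium channel subunits. None of the 10 *Cacna1* genes, which encode the calcium channel pores, reached 100, and the highest was *Cacna1a* at 97.6. None of 8 other potassium channel genes did either. Among them is *Kcnma1*, the pore of the large conductance calcium-activated potassium channel, which read 27.5 to 37.5 over all 18 arrays. The last member, *Scnm1*, encodes a splicing factor and shares only the form of its symbol with sodium channels. Array medians over all clusters began at 62.8, and a signal under 100 does not show that a gene is silent.

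**Figure D1:**
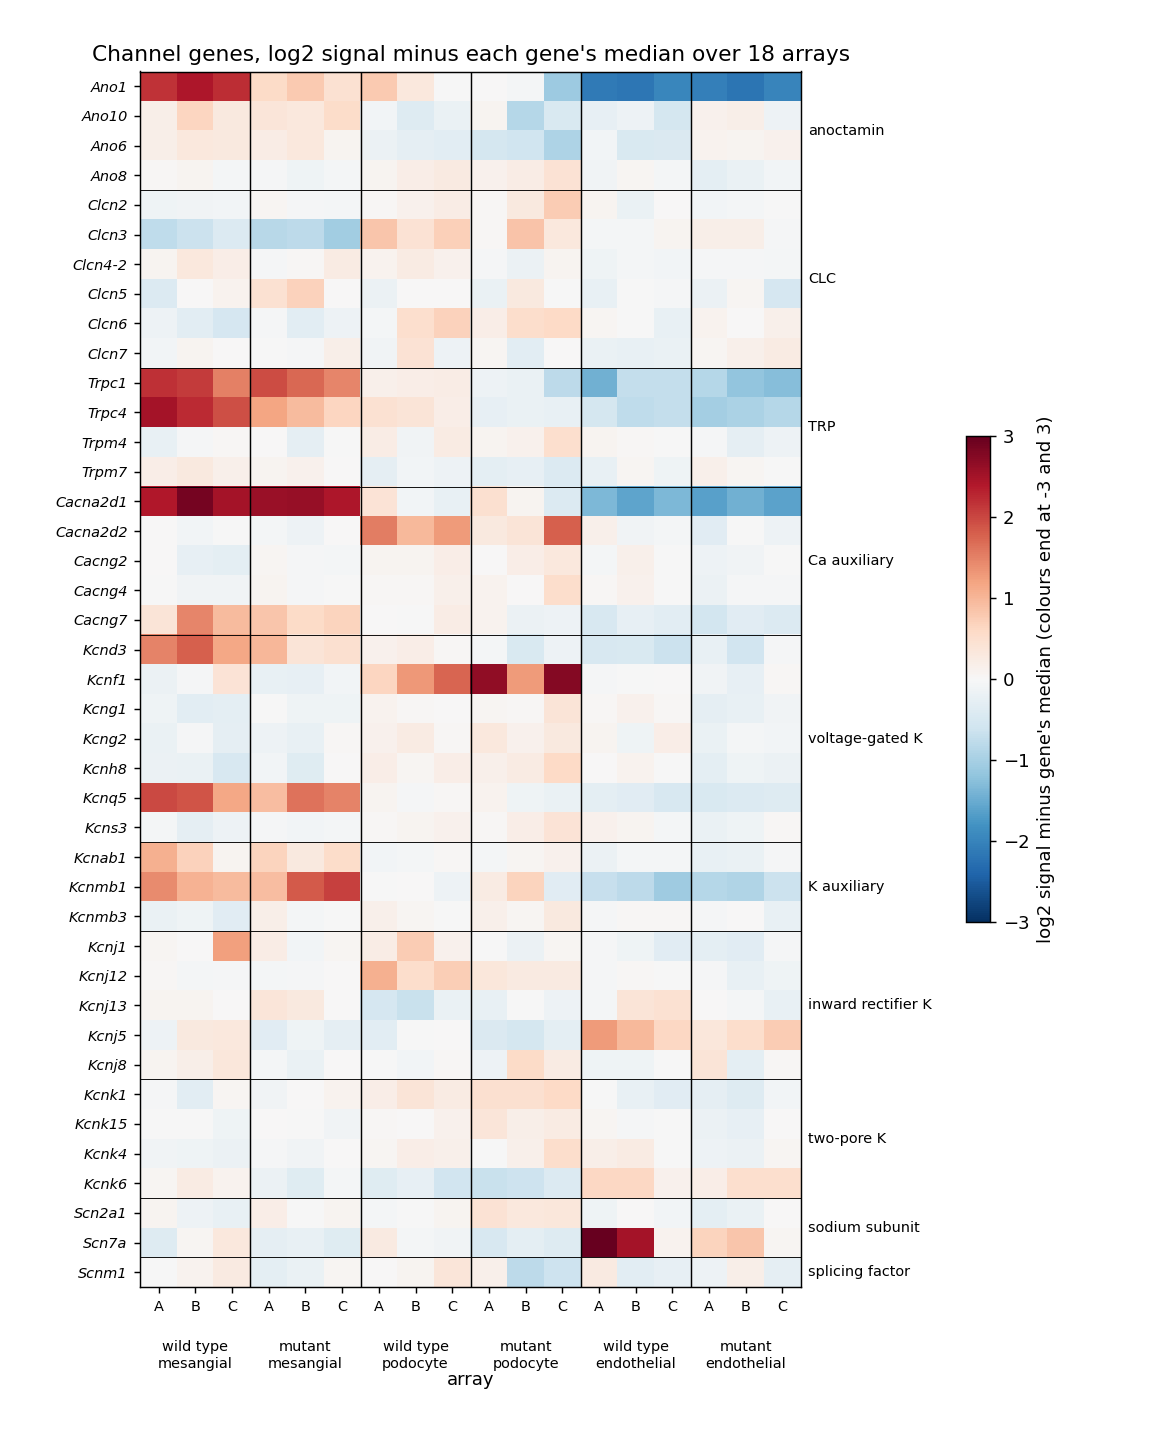
Signal of the 41 members in the 18 arrays, as log2 signal minus each gene's own median, with genes in rows by family and arrays A, B and C of each group in columns. Red rows over the 6 mesangial arrays include *Ano1*, *Trpc1*, *Trpc4*, *Cacna2d1*, *Kcnd3*, *Kcnq5* and *Kcnmb1*. For *Ano1*, *Trpc4* and *Kcnd3* the 3 mutant mesangial arrays are paler than the 3 wild type ones.

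The first question was which channels each normal cell type holds. Cell types were compared with limma on log2 signals of the 9 wild type arrays, over the clusters at 100 or more in at least 1 of them. A gene was called when its unadjusted p was under 0.05 and its fold change over 1.5, the screen of the study's methods, and adjusted p values (Benjamini-Hochberg) are over all clusters tested. Of the 41 members, 32 were tested. In podocytes against mesangial cells 15 were called, 5 higher and 10 lower, where 15.9% of all 12537 clusters were called in either direction. In endothelial against mesangial cells 14 were called, 3 higher and 11 lower, where 18.1% were called, and in endothelial cells against podocytes 14, 4 higher and 10 lower, where 22.0% were called. The 3 comparisons share their arrays and are not independent. Members that entered through the cell type in which they are high are bound to differ, and the shares are given as counts only. Of the members named in these comparisons, *Cacng7*, *Kcnab1*, *Kcnmb1* and *Kcnq5* entered through mesangial arrays alone, *Cacna2d2*, *Kcnf1* and *Kcnj12* through podocyte arrays alone and *Kcnj5* and *Scn7a* through endothelial arrays alone, and their differences between wild type cell types are given as descriptions without p values. The table holds no detection call. Where every array of the lower group read below its own array's median, a fold is written as at least that over those medians, while log2 differences stay as measured.

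Most members called between wild type cell types were highest in mesangial cells. *Ano1* encodes the calcium-activated chloride channel anoctamin 1 of smooth muscle and pacemaker cells. It read 1037, 1243 and 1076 in wild type mesangial arrays, 396, 289.6 and 231 in podocyte arrays and 53.0, 51.7 and 59.4 in endothelial arrays. The 3 cell types did not overlap, and the endothelial arrays lay below the median of every array. Its signal was 3.74-fold lower in podocytes, a log2 fold change of -1.90 (SE 0.18, adjusted p = 5.13e-05), and at least 16.7-fold lower in endothelial cells (adjusted p = 1.34e-07). In podocytes the order of *Ano1* over arrays A, B and C was that of the mesangial sum given above. The part of mesangial cells in the podocyte signal was not tested. In a sorted sample, fewer cells of a type and less RNA per cell cannot be told apart.

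The canonical TRP channels *Trpc1* and *Trpc4*, which form calcium-permeable cation channels that receptors coupled to phospholipase C open, had the same order. *Trpc4* read 474, 399 and 321 in mesangial, 116, 109 and 97.3 in podocyte and 58.9, 49.5 and 51.0 in endothelial wild type arrays. *Trpc1* read 877, 825 and 553 in mesangial, 215, 220.2 and 226 in podocyte and 71.0, 117 and 117 in endothelial wild type arrays. For both genes every mesangial array lay above every podocyte array and every podocyte array above every endothelial array. The log2 difference between podocytes and mesangial cells was -1.87 (SE 0.15, adjusted p = 2.12e-05) for *Trpc4* and -1.74 (SE 0.22, adjusted p = 0.000323) for *Trpc1*. The remaining TRP members were flat by comparison. *Trpm7*, a cation channel fused to a kinase that carries magnesium, read between 259.9 and 424 in all 18 arrays, and *Trpm4*, a calcium-activated sodium and potassium conductance, passed the minimum in mutant podocyte array C alone, at 114.

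Among auxiliary calcium channel subunits, *Cacna2d1* and *Cacna2d2* were highest in different cell types. Both encode alpha2delta proteins, which carry calcium channels to the surface and bind gabapentin. *Cacna2d1* read 576, 798 and 612 in mesangial, 144, 102 and 93.9 in podocyte and 42.6, 36.4 and 42.9 in endothelial wild type arrays, so that podocytes were 5.88-fold and endothelial cells at least 9.83-fold below mesangial cells (adjusted p = 1.45e-05 and 2.31e-07). *Cacna2d2* read 178, 120.1 and 149 in podocytes and 56.6 to 68.1 in the other wild type arrays. All 3 podocyte arrays lay above the rest, at least 2.29-fold above mesangial cells, and the log2 difference from mesangial cells was 1.29 (SE 0.14). *Cacng7*, a gamma subunit also known to escort glutamate receptors, read 102, 215 and 151 in mesangial and at most 90.9 in the other wild type arrays, with a wide mesangial spread. Its log2 differences were -0.86 (SE 0.22) in podocytes and -1.28 (SE 0.22) in endothelial cells, the latter at least 2.23-fold. *Cacng2* and *Cacng4* stayed between 66.3 and 137 in all arrays.

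Voltage-gated potassium channels of mesangial cells were *Kcnd3*, the Kv4.3 pore of the transient outward current, and *Kcnq5*, a Kv7 pore of the slow M-type current. *Kcnd3* read 277, 345 and 223 in wild type mesangial arrays, 103 to 114 in podocyte arrays and 64.2 to 72.4 in endothelial arrays, again without overlap. *Kcnq5* read 276, 255 and 154 in mesangial arrays and no more than 73.4 elsewhere in wild type. Podocytes were 2.55-fold lower in *Kcnd3* (adjusted p = 0.000118) and 3.13-fold lower in *Kcnq5*. For both genes the lowest of the 3 mesangial values was that of array C, the array with podocyte and endothelial markers. Of the *Kcnip* genes, whose products bind Kv4 channels, none reached 100.

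Auxiliary subunits with mesangial signal were *Kcnmb1* and *Kcnab1*. *Kcnmb1*, the beta1 subunit that sensitizes the large conductance potassium channel of smooth muscle to calcium, read 177, 136 and 128 in mesangial, 65.9, 67.4 and 59.8 in podocyte and 41.1, 38.9 and 31.8 in endothelial wild type arrays. The 3 cell types did not overlap, and podocytes were at least 2.15-fold lower. *Kcnab1*, a beta subunit that inactivates Kv1 channels, was called lower in both other cell types, but its mesangial arrays read 104, 80.1 and 52.0, and only array A reached the minimum. Its folds were at least 1.12 and 1.14, short of 1.5. *Ano10*, an anoctamin of intracellular membranes, read 127, 176 and 137 in mesangial and 77.2 to 105 in the other wild type arrays.

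Podocytes led in a smaller set. *Kcnf1* encodes an electrically silent Kv5 subunit that modifies Kv2 channels. It read 66.7, 106 and 144 in wild type podocytes and 38.2 to 57.2 in the other wild type arrays, at least 1.56-fold above mesangial cells. *Clcn3* and *Clcn6* encode endosomal chloride and proton exchangers. *Clcn3* read 214, 161 and 195 in podocytes and 70.5, 76.3 and 89.9 in mesangial cells. *Clcn6* read 113, 166 and 189 in podocytes and 106, 94.7 and 83.3 in mesangial cells. Each podocyte array lay above each mesangial array in both genes, with log2 differences of 1.27 (SE 0.13, adjusted p = 9.06e-05) for *Clcn3* and 0.69 (SE 0.18, adjusted p = 0.0201) for *Clcn6*. Without wild type podocyte array C the *Clcn6* difference was 0.53, under 1.5-fold, and not called. *Clcn3* was between these levels in endothelial cells, at 115, 114 and 126, where its log2 difference from mesangial cells, 0.59, was close to the fold threshold. It fell short of it without endothelial array C, mesangial array A or mesangial array B, at 0.51 to 0.57, and its difference from podocytes, -0.67, did so without podocyte array A, at -0.58. *Kcnj12*, the strong inward rectifier Kir2.2, read 104, 72.4 and 83.8 in podocytes and 47.7 to 51.3 in the other wild type arrays, at least 1.33-fold above mesangial cells, short of 1.5. Only podocyte array A reached the minimum there.

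Endothelial cells led in *Kcnj5*, *Kcnk6* and *Scn7a*. *Kcnj5*, the inward rectifier GIRK4 that G proteins open, read 163, 132 and 104 in endothelial and 53.4 to 83.2 in the other wild type arrays, 1.76-fold above mesangial cells and at least 1.93-fold above podocytes. *Kcnk6*, a two-pore potassium channel of the TWIK group, read 232, 231 and 166, against 118, 126 and 101 in podocytes and 156, 180.2 and 163 in mesangial cells. It was called above podocytes at 0.85 (SE 0.15, adjusted p = 0.00141) and not called above mesangial cells, with which it overlapped. *Scn7a*, an atypical sodium channel alpha subunit, was uneven, with 321, 197 and 37.8 in the 3 endothelial arrays and 27.0 to 43.9 in the other wild type arrays. Array C of the endothelial cells lay inside the range of the other cell types, the folds were at least 2.08 over mesangial cells and 1.97 over podocytes, and the SE of the log2 difference from mesangial cells, 1.93, was 0.63. Without endothelial array A this difference was 1.30 and not called, and the difference from podocytes, 1.89, was lost without array A or B, at 1.26 and 1.61. *Kcnj13*, the weakly rectifying Kir7.1, was higher in endothelial cells than in podocytes, 198, 271 and 286 against 146, 129.6 and 181, and overlapped with the mesangial arrays at 220.4, 219 and 209.9.

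**Figure D2:**
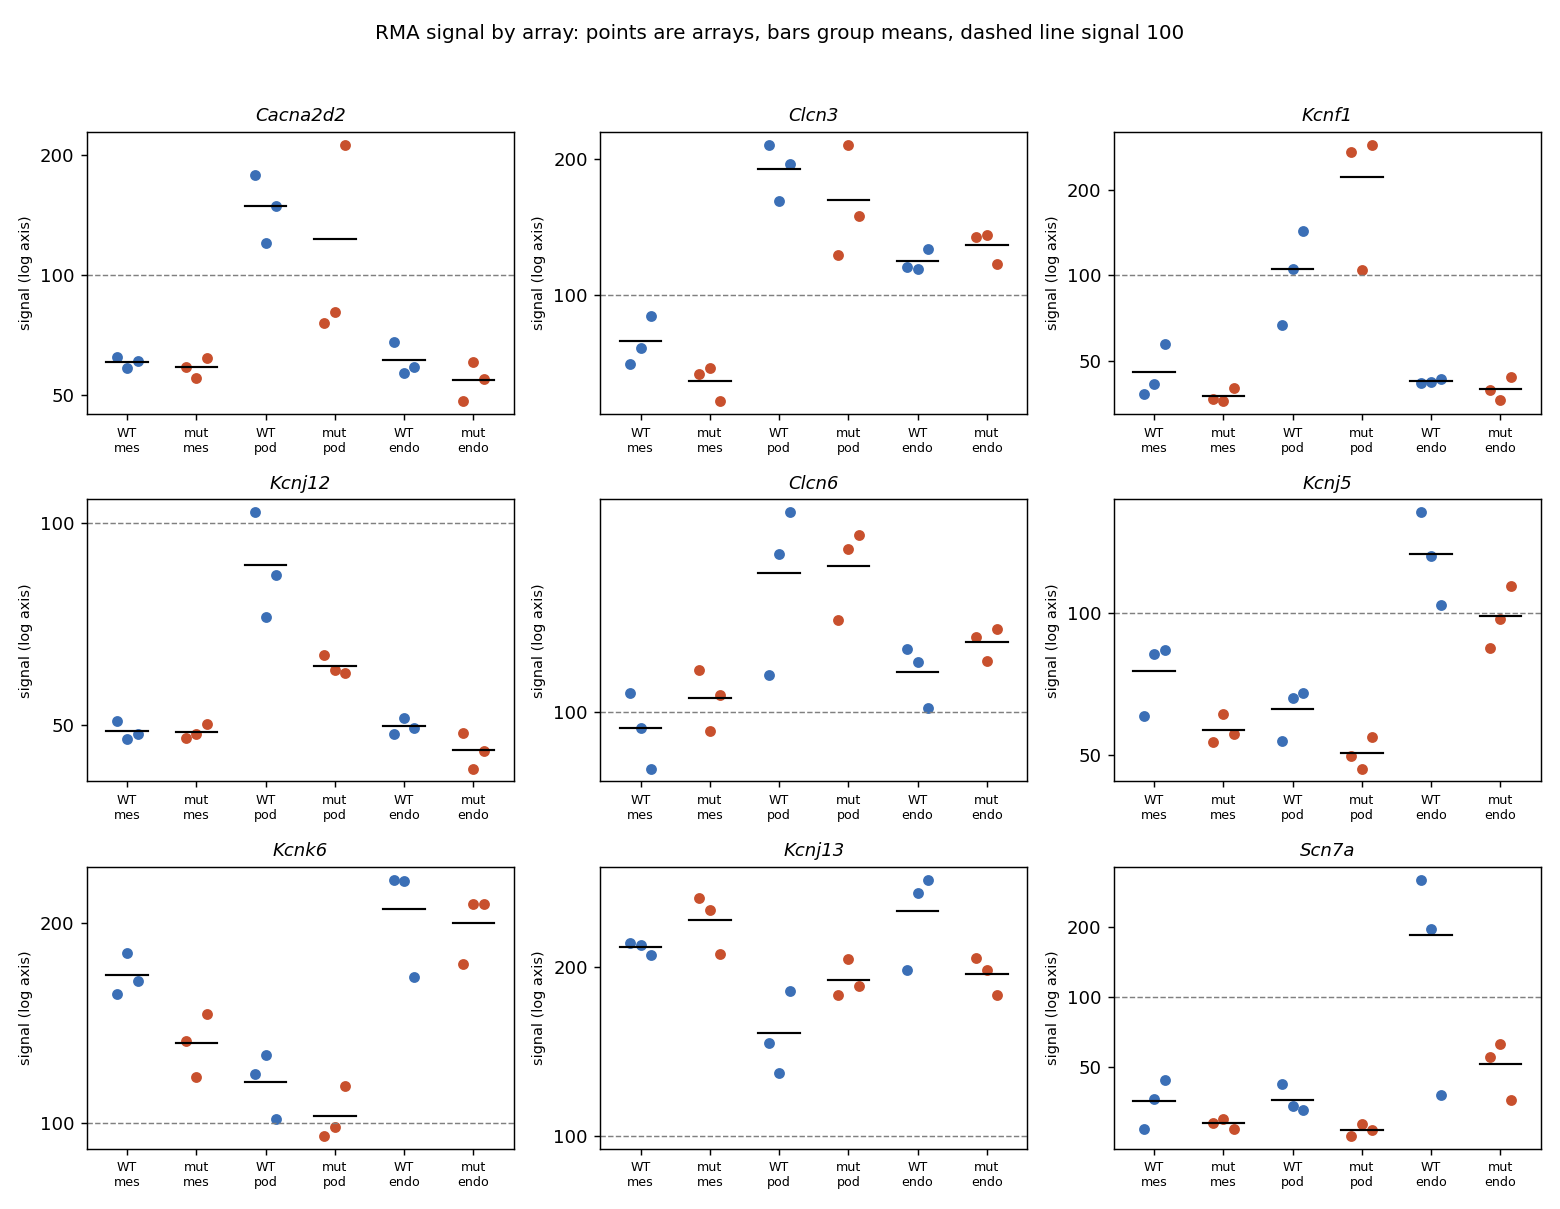
Signal of 9 members with podocyte or endothelial signal, on log axes, with blue points for wild type (WT) and orange for mutant (mut) arrays of mesangial (mes), podocyte (pod) and endothelial (endo) cells, and bars for group means. Among wild type groups *Cacna2d2*, *Clcn3*, *Kcnf1*, *Kcnj12* and *Clcn6* have their highest mean in podocytes and *Kcnj5* and *Kcnk6* in endothelial cells, and *Scn7a* is high in 2 of the 3 wild type endothelial arrays.

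Other members varied less between cell types. *Ano6*, the calcium-activated scramblase and channel TMEM16F, read 583 to 649.5 in mesangial, 417 to 458 in podocyte and 381 to 491 in endothelial wild type arrays, and was called lower in endothelial than in mesangial cells at -0.59 (SE 0.11, adjusted p = 0.00344). *Clcn4-2*, an endosomal exchanger, read 154 to 208 over all 9, and *Kcnk15*, a two-pore channel subunit, 100.1 to 119. *Clcn7*, the lysosomal exchanger, read 70.7 to 112, and the silent potassium channel subunits *Kcng2* and *Kcns3* read 70.1 to 101 and 77.0 to 102. *Kcnj1*, the ROMK channel of the thick limb and collecting duct, passed the minimum in wild type mesangial array C alone, at 103. That array also had the highest summed signal of 12 tubule markers, 2251, against at most 1269.6 in any other, and *Kcnj1* was left without a test when it was omitted. *Ano8*, *Cacng2*, *Clcn2*, *Kcnh8*, *Kcnk1*, *Kcnk4* and *Trpm4* entered through mutant podocyte array C and could not be tested without it. Omitting wild type mesangial array C left 15 calls between podocytes and mesangial cells and 13 instead of 14 between endothelial and mesangial cells, *Ano6* being the one lost.

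The same cell type differences were read in the 9 mutant arrays, as a description. In podocytes against mesangial cells 14 of 36 members tested were called, 4 higher and 10 lower, where 20.2% of all clusters were called. In endothelial against mesangial cells 11 were called, 3 higher and 8 lower, where 18.9% were called, and in endothelial cells against podocytes 11, 3 higher and 8 lower, where 30.9% were called. *Cacna2d1* had a log2 difference of -2.49 between mutant podocytes and mesangial cells beside -2.56 in wild type. *Ano1* had -0.98 beside -1.90, *Trpc4* -1.15 beside -1.87, and *Kcnf1* 2.42 beside 1.16. These changes are tested by the interaction contrasts given after the genotypes.

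The main comparison asked which channels differ in *Cd2ap* mutant mesangial cells. *Ano1*, *Trpc4* and *Kcnd3* were called lower and no member was called higher. Of the 41 members 24 were tested, so that 3 of 24 were called lower, beside 3.12% called lower and 2.08% called higher among all 11457 clusters. All 3 genes are mesangial genes of the preceding comparison. At an adjusted p under 0.05, *Ano1* and *Trpc4* remained, beside 1.68% of all clusters. The median log2 difference over the 24 members was -0.12 and over all clusters -0.02. Some members entered a genotype fit through 1 genotype alone and were bound to lean to it, and their values there are given as descriptions without p values. Among those named they are *Clcn5*, *Kcnmb3* and *Cacng4* (mutant) and *Kcnj8* (wild type) in mesangial cells, *Ano8* and *Scn2a1* (mutant) and *Trpc4*, *Kcnd3* and *Kcnj12* (wild type) in podocytes, and *Scn7a* (wild type) in endothelial cells.

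*Ano1* had the largest difference of the 3. It read 1037, 1243 and 1076 in wild type and 343, 396 and 318 in mutant mesangial arrays, means of 1119 ± 109 and 353 ± 39.6 (SD, n = 3). Every mutant array lay below every wild type array by more than the spread within either group. The signal was 3.18-fold lower in mutants, a log2 fold change of -1.67 (SE 0.12, limma, adjusted p = 0.00299), and was called in each fit that left out 1 array (adjusted p = 0.00413 to 0.0176).

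*Trpc4* read 474, 399 and 321 in wild type and 192, 162 and 132 in mutant mesangial arrays, again without overlap. The signal was 2.46-fold lower (log2 fold change -1.30, SE 0.19, adjusted p = 0.025). It stayed called by the screen when any 1 array was left out, at -1.44 to -1.16, but its adjusted p was then 0.017 without wild type array C and 0.051 to 0.0957 without any other array. *Trpc1*, whose product can join TRPC4 in 1 channel, read 877, 825 and 553 in wild type and 748, 638 and 533 in mutant arrays. Its groups overlapped and its log2 fold change was -0.22 (SE 0.21, adjusted p = 0.585). The difference between the values of *Trpc4* and *Trpc1* was not tested.

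*Kcnd3* read 277, 345 and 223 in wild type and 199.99, 130.4 and 139.7 in mutant mesangial arrays. The groups did not overlap, with the highest mutant array close to the lowest wild type array. It was 1.80-fold lower and called by the screen, but not at an adjusted p under 0.05 (log2 fold change -0.85, SE 0.21, adjusted p = 0.0905). A second cluster of *Kcnd3* was flat, at 82.9 to 125 in all 18 arrays, and with both clusters averaged the log2 fold change was -0.45 and no longer called.

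**Figure D3:**
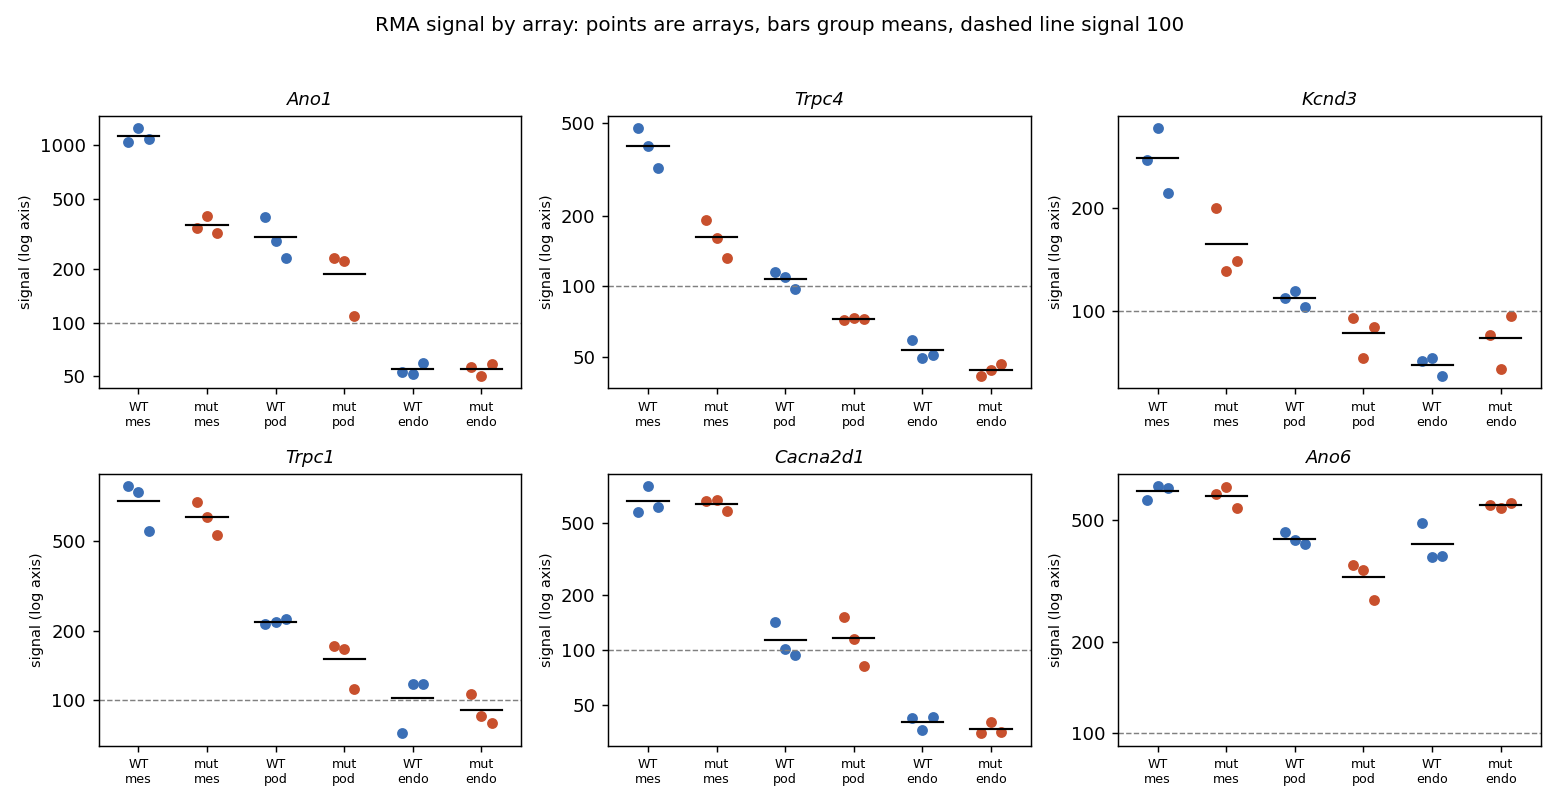
Signal of 6 members in the 18 arrays on log axes, with blue points for wild type (WT) and orange for mutant (mut) arrays of mesangial (mes), podocyte (pod) and endothelial (endo) cells, and bars for group means. Mutant mesangial arrays lie below all wild type ones for *Ano1*, *Trpc4* and *Kcnd3*, and overlap them for *Trpc1*, *Cacna2d1* and *Ano6*.

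Most other mesangial channels did not differ by the screen. *Cacna2d1* read 576, 798 and 612 in wild type and 656, 666 and 579.9 in mutant mesangial arrays, a log2 fold change of -0.05 (SE 0.14). *Kcnq5* read 276, 255 and 154 in wild type and 132, 216 and 193 in mutant arrays, overlapping through the low wild type array C. Without that array *Kcnq5* was called lower, at -0.59 on the log2 scale (adjusted p = 0.212), and the count became 4, while over all arrays the value was -0.33 and without mutant array A -0.12. *Kcnmb1* was uneven in mutants, 126, 239 and 278 against 177, 136 and 128 in wild type, and *Clcn5*, the endosomal exchanger of Dent disease, read 107, 125 and 78.2 against 58.5, 78.8 and 84.2. Neither was called (adjusted p = 0.404 for *Kcnmb1*). With 1 array left out the log2 fold change of *Kcnmb1*, 0.48, ranged from 0.25 without mutant array C to 0.82 without mutant array A, where it was called higher. That of *Clcn5*, 0.48, ranged from 0.32 without wild type array A to 0.67 without mutant array C, where it was called higher. *Kcnk6* read 156, 180.2 and 163 in wild type and 133, 117 and 146 in mutant arrays, without overlap and at -0.34 (SE 0.11, adjusted p = 0.148), and *Kcnmb3*, another beta subunit, was without overlap in the opposite direction, at 0.26 (SE 0.10). *Ano6*, *Ano10*, *Cacng4* and *Kcnk15* had log2 fold changes between -0.06 and 0.08. Groups did not overlap for 7 of the 24 members tested, and for 28.6% of all clusters.

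Markers of cell types also differed between wild type and mutant mesangial arrays, in both directions. The summed signal of the 11 mesangial markers was 14602, 15831 and 14645 in wild type and 11774, 10858 and 11589 in mutant mesangial arrays, with 4 of 11 called lower (*Itga8*, *Des*, *Tbx3* and *Gucy1a3*) and 0 higher, and all 11 stayed at 100 or more in each array. *Tbx3* is no marker of mesangial cells alone here, as it read 463 to 487 in wild type endothelial and 342 to 344 in wild type mesangial arrays. Of 11 endothelial markers tested 2 were called lower, *Tek* and *Ehd3*, both at an adjusted p under 0.05, and of 12 podocyte markers 1, *Wt1*. In wild type mesangial arrays A and B *Tek* read 575 and 783 and *Ehd3* 618 and 517, where *Pecam1* read 82.3 and 107. *Tek* and *Ehd3* are thus no markers of endothelial cells alone here. The sum of 11 smooth muscle and renin cell markers was 4417, 4549.6 and 4089 in wild type and 5265, 5902 and 6139 in mutant arrays, with *Acta2* and *Tagln* called higher and *Akr1b7* lower. No mutant array overlapped the wild type ones in either sum. In the same arrays the 2 genotypes overlapped in *Cacna2d1*. The part of cell composition in the *Ano1*, *Trpc4* and *Kcnd3* differences was not tested. Without wild type mesangial array C, the array with markers of other cells, the log2 fold changes were -1.69 for *Ano1*, -1.44 for *Trpc4* and -1.01 for *Kcnd3* (adjusted p = 0.00413, 0.017 and 0.0702), all called.

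**Figure D4:**
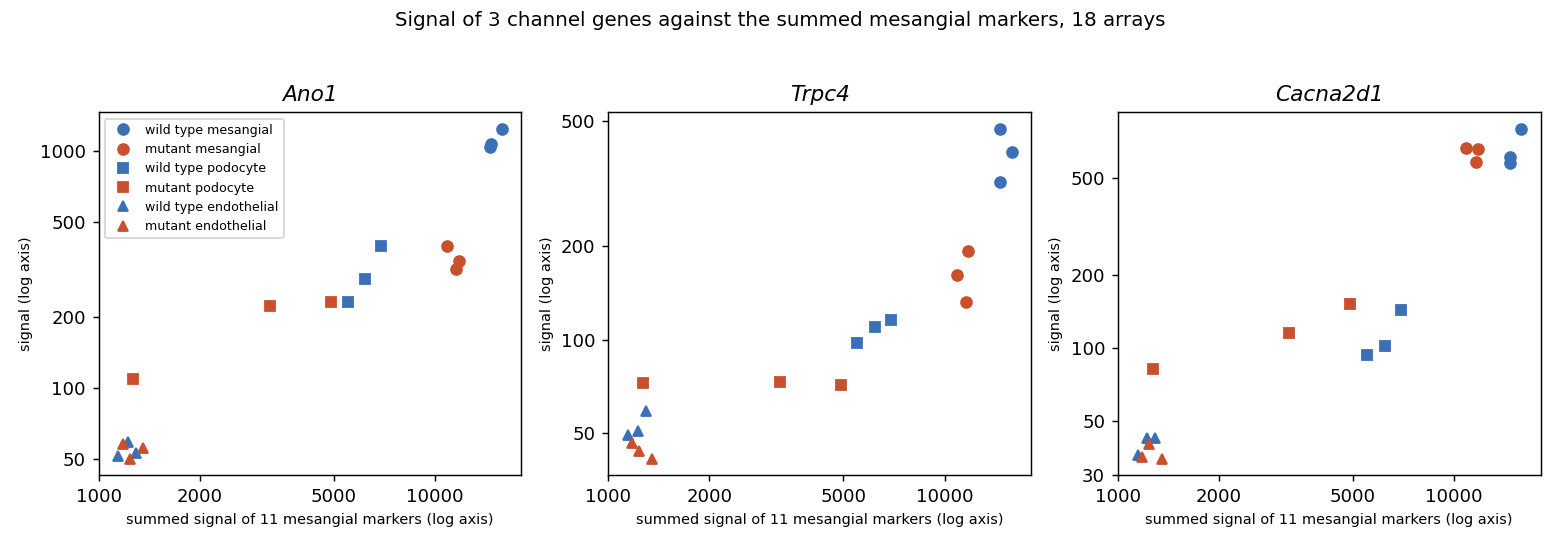
Signal of *Ano1*, *Trpc4* and *Cacna2d1* in each array (vertical, log axis) against the summed signal of 11 mesangial markers in the same array (horizontal, log axis), with circles for mesangial, squares for podocyte and triangles for endothelial arrays, blue for wild type and orange for mutant. Mutant mesangial arrays sit left of the wild type ones in all panels, and below them for *Ano1* and *Trpc4* but not for *Cacna2d1*.

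In mutant podocytes 34 members were tested, 1 was called higher and 0 lower, beside 1.26% and 4.34% of all 12113 clusters, and none had an adjusted p under 0.05, as 0.0578% of all clusters had. Of the 34, 7 had an unadjusted p under 0.05 by limma, beside 14.3% of all clusters. *Kcnf1*, highest in podocytes, read 66.7, 106 and 144 in wild type and 270.5, 105 and 288 in mutant podocytes. Mutant arrays A and C lay above all wild type arrays and mutant array B among them, and the log2 fold change was 1.00 (SE 0.43, limma, unadjusted p = 0.049, adjusted p = 0.348). *Kcnf1* was no longer called without mutant array A or C or wild type array A or B, at 0.71 to 1.04.

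*Trpc1*, *Trpc4*, *Ano1* and *Ano6* had lower mean values in mutant podocytes that did not pass the screen, and *Ano8* read 83.7, 90.3 and 95.2 in wild type and 85.9, 91.8 and 106 in mutant podocytes. *Trpc4* read 116, 109 and 97.3 in wild type and 71.4, 73.0 and 72.5 in mutant podocytes, and *Trpc1* 215, 220.2 and 226 in wild type and 173, 167 and 112 in mutant ones. Neither overlapped, and the folds of 1.48 and 1.49 fell short of 1.5 (adjusted p = 0.236 for *Trpc1*). The mutant *Trpc4* values lay near the array medians. *Ano1* read 396, 289.6 and 231 in wild type and 231, 223 and 109 in mutant podocytes, 1.68-fold lower at an unadjusted p of 0.0506 by limma, with overlap between the highest mutant and the lowest wild type array. With 1 array left out its log2 fold change, -0.74 over all arrays, ranged from -0.93 without mutant array A to -0.39 without mutant array C, and it was called without mutant array A or B or wild type array C. That of *Trpc1*, -0.57, ranged from -0.69 without mutant array A to -0.37 without mutant array C, and was called without mutant array A or B or wild type array A. That of *Trpc4* ranged from -0.64 without wild type array C, where it was called, to -0.51 without wild type array A. The splicing factor gene *Scnm1*, at -0.57, ranged from -0.85 without mutant array A, where it was called (adjusted p = 0.0468), to -0.39 without mutant array B. *Ano6* read 458, 432 and 417 in wild type and 358, 345 and 274 in mutant podocytes, without overlap, at -0.43 (SE 0.14, adjusted p = 0.254). *Kcnj12* read 104, 72.4 and 83.8 in wild type and 63.7, 60.4 and 59.8 in mutant podocytes, also without overlap, at -0.48 (SE 0.16), with each mutant array below its own median. *Kcnj12* could not be tested without wild type array A, and was called lower without wild type array B, at -0.61. *Kcnd3* read 103 to 114 in wild type and 72.5 to 95.1 in mutant podocytes, at -0.35 (SE 0.14). *Scn2a1*, a brain sodium channel just inside the minimum, had higher mutant values without overlap, 102, 94.5 and 96.4 against 73.3, 75.6 and 80.6, at 0.35 (SE 0.12). Groups did not overlap for 9 of the 34 members tested and for 21.3% of all clusters.

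Markers of other cells also differed between wild type and mutant podocyte arrays. Of the 11 mesangial markers, whose sums are given above, 7 were called lower in mutant podocytes and 0 higher, and the number at 100 or more was 11, 10 and 10 in wild type and 10, 8 and 5 in mutant arrays. The endothelial sum was 5507, 6516 and 4898 in wild type and 3139, 1549 and 1085 in mutant arrays, with 10 of 11 tested markers called lower. The smooth muscle and renin cell sum was 2062, 2236 and 2089 in wild type and 4277, 4915 and 1785 in mutant arrays, with 2 of 9 tested markers called higher. Of 5 leukocyte markers tested 1 was called higher, and of 6 tubule markers 1 was called lower. The erythroid sum was 4368, 3351 and 4352 in wild type and 5763, 1098 and 687 in mutant arrays. The podocyte sum was 20137, 18191 and 19675 in wild type and 17002, 16102 and 18553 in mutant arrays, with 1 of 12 called lower (*Ptpro*). Within the mutant podocytes, array C had the lowest mesangial sum and the lowest *Ano1*, *Trpc1* and *Ano6* values, but not the lowest *Trpc4* value. The part of mesangial cells in the podocyte values of *Ano1*, *Trpc1*, *Trpc4* and *Kcnd3* was not tested. *Cacna2d2*, the podocyte alpha2delta gene, read 178, 120.1 and 149 in wild type and 75.6, 80.7 and 213 in mutant podocytes, so that mutant arrays A and B lay below and array C above all wild type arrays. Its log2 fold change was -0.43 (SE 0.39, adjusted p = 0.637), -0.17 without mutant array A and -0.92 without mutant array C (adjusted p = 0.155), where it was called and *Kcnf1* was not, which left 1 call among 27 members tested.

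In mutant endothelial cells 18 members were tested and 0 were called, beside 3.82% of all 11330 clusters in limma's test, while 5 had an unadjusted p under 0.05, beside 18.5%. *Ano6* read 491, 381 and 383 in wild type and 562, 549 and 570.4 in mutant endothelial arrays and *Ano10* 95.2, 100.4 and 77.2 in wild type and 122, 126 and 101 in mutant ones. Mutant arrays were higher without overlap in both, 1.35-fold and 1.28-fold (adjusted p = 0.131 and 0.221). Lower mutant values were read for *Kcng1*, a silent potassium channel subunit, at 99.1, 103 and 111 against 123, 132 and 123, and for the inward rectifiers *Kcnj13* and *Kcnj5*. *Kcnj5* read 84.1, 97.1 and 114 against 163, 132 and 104, with overlap, at -0.42 (SE 0.18, adjusted p = 0.265). *Scn7a* read 55.4, 62.8 and 36.2 against 321, 197 and 37.8, so that the high values of wild type arrays A and B were met in no mutant array, and the log2 fold change of -1.41 had an SE of 0.69 and overlapping groups. The endothelial marker sums were 17491 to 19068 in wild type and 19512 to 20219 in mutant arrays, with 0 of 12 called. The leukocyte sums were 753, 882 and 888 in wild type and 1506, 1055 and 853 in mutant arrays, with *Cd14* called higher among 5 markers tested, and of 3 mesangial markers tested *Serpine2* was called higher. Their part in the endothelial values was not tested. Groups did not overlap for 4 of the 18 members tested and for 25.1% of all clusters. Without wild type endothelial array C, which had the lowest endothelial sum, 2 members passed the screen, *Scn7a*, which its wild type arrays alone brought in, at -2.33 and *Kcnj5* at -0.59 (adjusted p = 0.258). Without wild type array A the same values were -0.78 and -0.26.

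**Figure D5:**
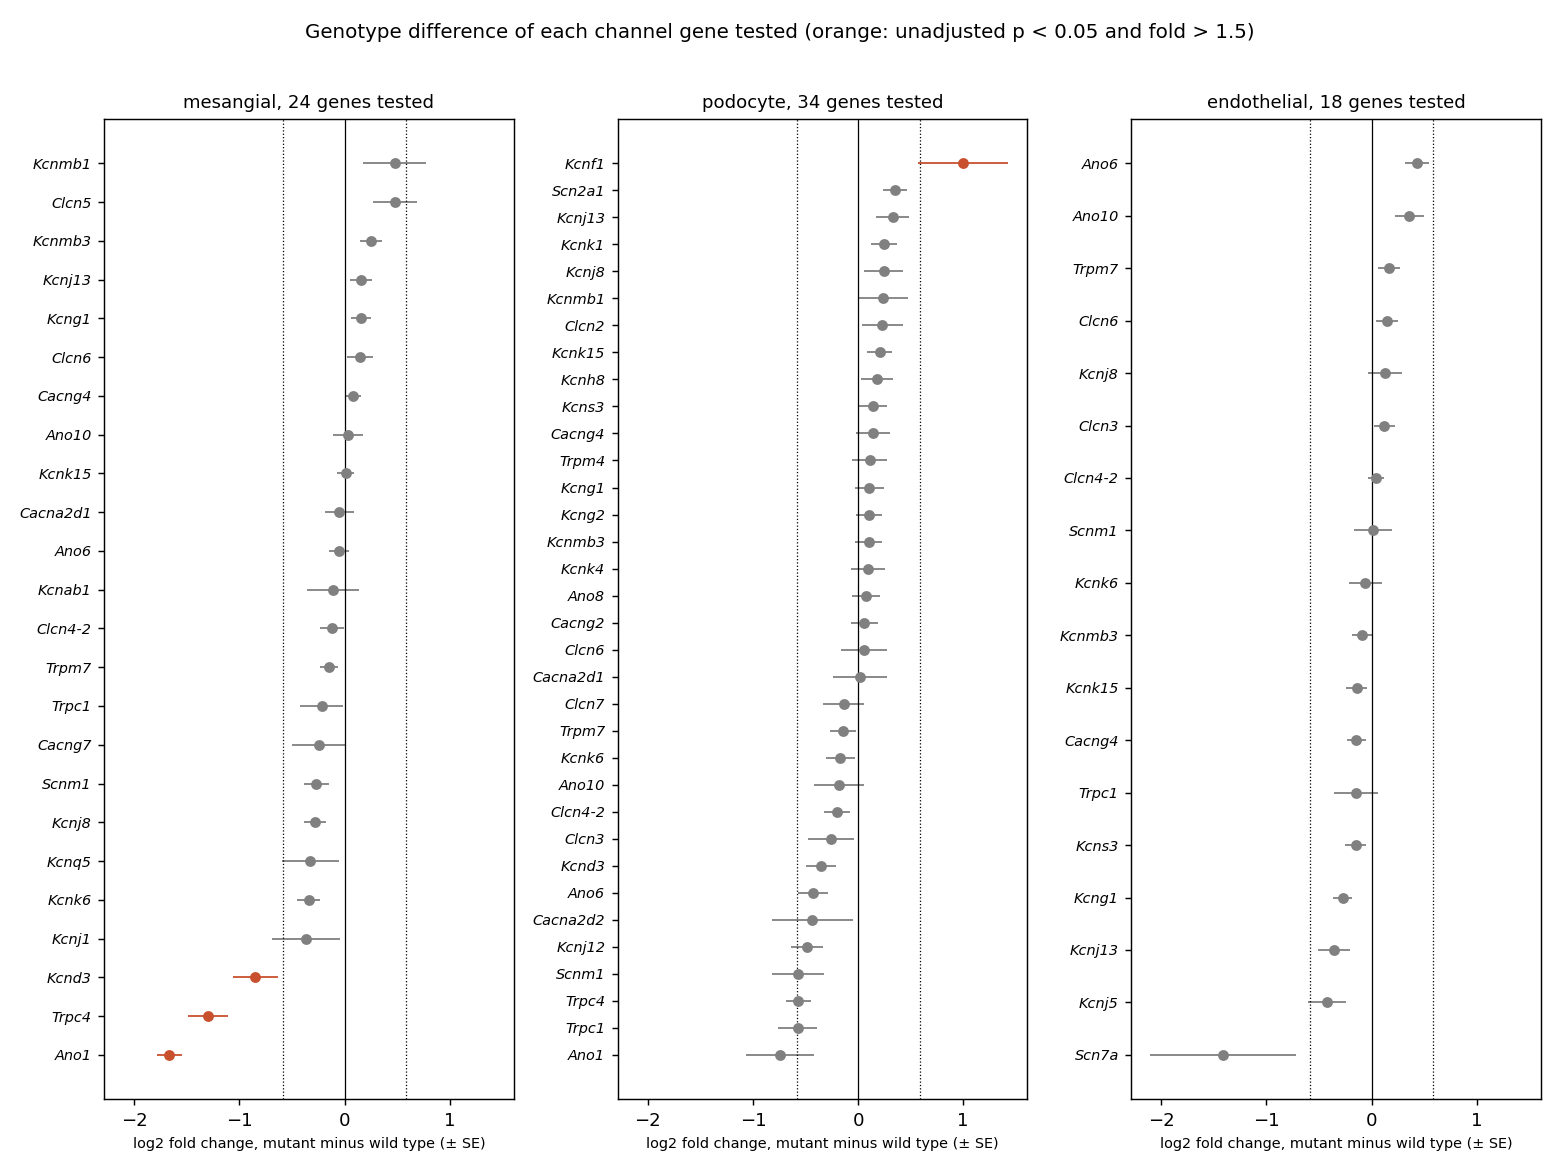
Log2 fold change, mutant minus wild type, with SE, for each member tested in mesangial, podocyte and endothelial cells, in order of value, with dotted lines at 1.5-fold and orange points for members called by the screen. In mesangial cells *Ano1*, *Trpc4* and *Kcnd3* stand left of the dotted line, in podocytes *Kcnf1* is orange, and in endothelial cells no point is.

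Whether genotype differences were unlike between cell types was tested with interaction contrasts of limma over all 18 arrays and 13523 clusters, where all 41 members were tested. Between endothelial and mesangial cells 2 members had an adjusted p under 0.05, *Ano1* and *Trpc4*, beside 1.07% of all clusters. Each endothelial array read both genes below its own median, where a further fall can hardly be read, so these contrasts repeat the mesangial differences and do not show that the genotype effects differ. The *Ano1* contrast was 1.67 on the log2 scale (SE 0.33, adjusted p = 0.0201) and its endothelial signals were 50.3 to 59.4 in both genotypes. The call was lost without mutant endothelial array A or C, wild type endothelial array B or wild type mesangial array B, at 1.59 to 1.65 (adjusted p = 0.0521 to 0.0548). The *Trpc4* contrast was 1.03 (SE 0.20, adjusted p = 0.0215) with endothelial signals of 41.4 to 58.9, and its call was lost without mutant endothelial array C or wild type endothelial array B or C, at 0.98 to 1.00 (adjusted p = 0.0569 to 0.0649). That of *Kcnd3* was 1.09 (SE 0.26, adjusted p = 0.0514), and passed without mutant endothelial array B, mutant mesangial array A, wild type mesangial array C or any 1 mutant podocyte array (adjusted p = 0.0199 to 0.0492), with a trended and robust eBayes and with array medians subtracted (adjusted p = 0.0476 and 0.0258). Its endothelial signals were 64.2 to 72.4 in wild type arrays, around the array medians, where a fall can hardly be read. In mutant endothelial arrays they were 67.04 to 96.6, above the medians of those arrays, 62.8 to 64.6. The *Kcnd3* contrast thus holds the mesangial difference and, with overlap, a higher mutant endothelial signal. Between podocytes and mesangial cells no member passed, beside 0.717% of all clusters, and 6 had an unadjusted p under 0.05, beside 12.0%. There *Ano1* differed by 0.92 (SE 0.33, adjusted p = 0.248) and *Trpc4* by 0.73 (SE 0.20, adjusted p = 0.139). Without mutant podocyte array C the *Ano1* value was 1.27 (adjusted p = 0.0209), and without wild type mesangial array C that of *Trpc4* was 0.87 (adjusted p = 0.0397). With all arrays, the genotype differences of *Ano1* in mesangial cells and in podocytes were not shown to differ.

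Between endothelial cells and podocytes 1 member passed, *Ano6*, beside 2.11% of all clusters. It was higher in mutant endothelial and lower in mutant podocyte arrays, and the effects differed by 0.86 (SE 0.17, adjusted p = 0.0237). The call was lost without mutant endothelial array A, wild type endothelial array B or C or wild type podocyte array A, at 0.80 to 0.86 (adjusted p = 0.0567 to 0.065). Without mutant podocyte array A 4 members passed, where 13.8% of all clusters did. *Kcnj13* had the next lowest p value, with a difference of -0.68 (SE 0.21, adjusted p = 0.0778). *Kcnf1*, which reached the minimum among wild type arrays in podocytes alone, is given as a description. It differed by -1.09 (SE 0.44) there and by 1.26 (SE 0.44) between podocytes and mesangial cells. Neither value passed, while both did without mutant podocyte array B, at -1.57 and 1.73. Each wild type mesangial and endothelial array read *Kcnf1* below its own median, where a fall can hardly be read. These contrasts thus largely repeat the podocyte difference and do not show that the genotype effects differ.

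Partners of the channels were read from a list of 12 genes. In mesangial cells 2 of them were tested and *Abcc9* was called, beside 3.12% of all clusters called lower. *Abcc9* encodes the sulfonylurea receptor SUR2, which joins the inward rectifier of *Kcnj8*, Kir6.1, in the ATP-sensitive potassium channel of pericytes and smooth muscle. It read 369.1, 277 and 269 in wild type and 132, 109 and 138 in mutant mesangial arrays, without overlap, and was 2.40-fold lower (log2 -1.26, SE 0.15, adjusted p = 0.0147). Wild type podocytes read 88.8 to 95.9 and endothelial cells 59.9 to 64.7, so *Abcc9* had the same order of cell types as *Ano1*. Its genotype contrast against podocytes was 0.97 (SE 0.18, adjusted p = 0.0202) and against endothelial cells 1.23 (SE 0.18, adjusted p = 0.00296). Endothelial arrays read 53.9 to 66.0, near or below the array medians, and mutant podocytes 67.9 to 79.6, so these contrasts largely repeat the mesangial difference. The pore gene *Kcnj8* read 91.1, 97.7 and 109 in wild type and 83.3, 75.5 and 86.3 in mutant mesangial arrays, without overlap but near the minimum, a log2 fold change of -0.28 (SE 0.10). *Kcnj8* entered this comparison through wild type mesangial array C alone.

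Other channels and calcium handling genes were read from a list of 51, of which 45 were on the array. In mesangial cells 1 of 23 tested was called, beside 2.08% of all clusters called higher and 3.12% lower. It was *Lrrc8d*, a subunit of the volume-regulated anion channel, which read 68.5, 85.4 and 143 in wild type and 156, 171 and 170.3 in mutant arrays. The groups did not overlap, and the log2 fold change was 0.81 (SE 0.25, adjusted p = 0.141). In podocytes 3 of 26 were called, 1 higher and 2 lower, beside the 1.26% and 4.34% of all clusters given above. *Stim2*, a calcium sensor of the endoplasmic reticulum that opens store-operated channels, read 259, 328 and 257 in wild type and 187, 190.4 and 151 in mutant podocytes, a log2 fold change of -0.67 (SE 0.16, adjusted p = 0.164) with no overlap. *Lrrc8c* was lower at -0.99 (SE 0.38, adjusted p = 0.318) and *Atp2b4*, a calcium pump of the plasma membrane, higher at 0.62 (SE 0.23), both with overlap. *Atp2b4* reached the minimum in mutant podocyte arrays A and B alone and was bound to lean that way. In wild type endothelial arrays *Stim2* read 537 to 688 and *Lrrc8c* 1017 to 1291. The *Lrrc8c* values of mutant podocyte arrays A, B and C, 308, 168 and 94.1, had the order of the endothelial sum given above, in arrays where 10 of 11 endothelial markers were called lower. The part of endothelial cells in the *Stim2* and *Lrrc8c* values was not tested. In endothelial cells 1 of 23 was called, beside 3.82% of all clusters, *Atp2b4* again, 140.0, 137 and 191 in mutant against 116, 91.1 and 89.9 in wild type arrays, at 0.65 (SE 0.16, adjusted p = 0.11). *Stim2* differed in its genotype difference between endothelial cells and podocytes by 0.87 (SE 0.20, adjusted p = 0.0369). Among 11 kinases and ligases that act on channels tested in each cell type, 1 was called, *Prkca* in podocytes, where 4.34% of all clusters were called lower, at -1.13 (SE 0.43, adjusted p = 0.305). It read 694 to 879 in wild type mesangial arrays, and its values of 183, 157 and 54.7 in mutant podocyte arrays A, B and C had the order of their mesangial sums.

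Members of the same lists differed between wild type cell types too. *Clic3*, an intracellular chloride channel protein, read 1003, 855 and 892 in podocytes and 58.8 to 113 in the other wild type arrays. The highest of the latter was mesangial array C, the array with podocyte markers, and the other mesangial arrays lay near the array medians. Receptors of inositol trisphosphate, which release stored calcium, were divided among the cells. *Itpr1* read 957 to 1159 in mesangial, 714 to 823 in podocyte and 275 to 426 in endothelial arrays, and *Itpr3* 69.6 to 84.4, 223 to 299 and 133 to 162 in the same order. *Itpr2* read 199, 308 and 232 in endothelial arrays and at most 137 in the others. *Itpr3* was 3.48-fold higher in podocytes and *Itpr2* 2.22-fold higher in endothelial cells than in mesangial cells (adjusted p = 1.86e-05 and 0.00074). *Prkg1*, the cyclic GMP kinase of smooth muscle relaxation, read 914 to 1069, 474 to 554, and 152 to 206 in the same order, and *Stk39*, a kinase of chloride cotransporters, 852 to 915, 261 to 317, and 202 to 244.

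The members whose log2 signal was most like that of *Ano1* over the 18 arrays were *Trpc4* with a Pearson's r of 0.95, *Cacna2d1* with 0.91 and *Trpc1* with 0.91. This is a description without a test, since arrays of a cell type share its level. Other clusters of members were checked where a gene had several. A second cluster of *Ano6* read 39.8 to 58.6 in all 18 arrays, below every array median, and did not repeat the genotype differences of the first. The second cluster of *Cacna2d1* read 445, 615 and 536 in wild type mesangial arrays and 27.8 to 33.7 in endothelial arrays, the same order as the first. *Scn2a1*, read at or below 102 by its chosen cluster, had clusters with a lower mean that reached 197 in mutant podocyte array A and 164 in array B. The cluster of *Ano8* also carries the symbol *Dda1* and cannot tell the genes apart.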

How the data were processed

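GFP-sorted glomerular cells of 6 groups were profiled, on 18 Affymetrix Mouse Gene 1.0 ST arrays in all, with 3 arrays a group. The authors deposited a table of linear intensity values from RMA (background correction, quantile normalization and probe summary), made with Expression Console per the labels, and beside them 18 columns of centred log2 values, which were not used here. The series record names exon arrays and other software, while the table's header and the methods name the gene arrays, which the values fit. Columns were matched to groups and not to single samples, so arrays are named by column order. The study's RNA-seq libraries were not used. Quantile normalization makes array distributions alike, so a change shared by most genes cannot be read. The number of arrays limits the precision.

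Signals were taken as log2 and fitted with limma 3.58.1 in R 4.3.3 (lmFit and eBayes), on the arrays of both groups for a genotype, on 9 arrays for cell types within a genotype and on 18 arrays for interactions. Clusters entered at a signal of 100 or more in at least 1 array of the fit. The screen, after the study's methods, asked for a fold change over 1.5 with an unadjusted p under 0.05, and adjusted p values are Benjamini-Hochberg over all clusters of a fit. Interactions were called at an adjusted p under 0.05. The scripts were tested on simulated data. Replicates are separate samples by the labels, and 0 pairs of arrays were identical.

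Genes named are *Ano1*, members called by the screen (at most 10 a direction between cell types), members past an interaction test, called genes of the other lists and the 3 members most like *Ano1*. Others were chosen after their values were seen. The members and lists were chosen with earlier results of these data known. The 2 genes of the families that were left out of the members are not reported here. Marker lists cover podocyte, endothelial, mesangial, smooth muscle and renin, leukocyte, tubule and erythroid cells. The leukocyte sum was highest in mutant mesangial array B, at 2319, against at most 1678 elsewhere. Alternatives were no signal minimum, a stricter one, a fit of all arrays, a trended and robust eBayes, array medians subtracted, all clusters of a gene averaged, and each array left out.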

Additional observations from a re-analysis of the deposited data

Results flagged for a closer look

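The interaction contrast of *Ano1* between endothelial and mesangial cells was 1.67 on the log2 scale (limma, adjusted p = 0.0201). *Ano1* was lower in 3 of 3 mutant mesangial arrays than in any wild type one, while endothelial arrays of both genotypes read 50.3 to 59.4, each below its own array's median. The contrast of *Trpc4* between the same cell types was 1.03 (adjusted p = 0.0215), with endothelial arrays at 41.4 to 58.9, again below the medians. Since a fall could hardly be read in endothelial cells, both contrasts repeat the mesangial differences and do not show that the genotype effects differ. The genotype difference of *Ano6* was unlike between endothelial cells and podocytes, by 0.86 (adjusted p = 0.0237), with 3 of 3 mutant endothelial arrays above and 3 of 3 mutant podocyte arrays below the wild type ones. Of 21 alternatives the call was lost in 4 for *Ano1*, 3 for *Trpc4* and 4 for *Ano6*, each time by leaving out 1 array. Groups of 3 arrays were not searched for single outlying arrays.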

How the results depend on the processing

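In mutant mesangial cells the count of members called, 3, was 2 to 4 under all alternatives. In mutant podocytes the count of 1 became 0 with no signal minimum, 2 with a signal of 100 in all 3 arrays of a group, with all 18 arrays in 1 fit or with a trended and robust eBayes (*Ano1* beside *Kcnf1*), and 3 with array medians subtracted (*Trpc1*, *Trpc4* and *Scnm1* in place of *Kcnf1*), and ranged from 1 to 3 when each array was left out. In endothelial cells the count of 0 became 1 with all 18 arrays in 1 fit (*Scn7a*) and ranged from 0 to 2 when each array was left out. Among interactions, the count of 1 between endothelial cells and podocytes ranged from 0 to 4 when each array was left out, that of 2 between endothelial and mesangial cells ranged from 0 to 3, and that of 0 between podocytes and mesangial cells from 0 to 1. Counts between wild type cell types were 11 to 18 under all alternatives. Of 687 single gene values under alternatives, 656 kept their side of the threshold, 31 kept their direction but not the call, and 0 reversed.

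Over all clusters, calls in mutant podocytes rose from 679 to 1235 without mutant podocyte array A. Interaction calls ranged from 44 to 423 around 97 (podocytes and mesangial cells), from 85 to 251 around 145 (endothelial and mesangial cells) and from 30 to 1865 around 285 (endothelial cells and podocytes) when each array was left out, and with array medians subtracted the last 2 counts were 262 and 970. The cause was not tested. No paired analysis was possible because the groups compared share no replicate numbers.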
